A study of Homo sapiens with 21 samples.

Results

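The chromatin around the homeobox genes MEIS1, MEIS2, MEIS3, PBX2, PBX3 and PBX4 was followed by ATAC-Seq in SK-N-BE(2), a human neuroblastoma cell line, after silencing of the BAF complex subunits ARID1A and ARID1B. The members were the sites of the consensus list, over all 7 groups, whose nearest gene in the deposited annotation was one of these 6 genes. This gave 68 of 367900 sites, 28 for MEIS2, 29 for PBX3, 6 for PBX4, 4 for MEIS3 and 1 for PBX2. No site was named for MEIS1, since the annotation uses the nearest start site and the 19 sites inside MEIS1 are named for MEIS1-AS2, MEIS1-AS3 or AC007392.4. These 19 sites, and those inside MEIS2 (18), PBX4 (4) or PBX2 (1) that carry another name, 42 in all, were added after the annotation had been seen and are reported apart from the 68.

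MEIS and PBX proteins are homeodomain transcription factors of the TALE class. A MEIS protein binds a PBX protein, and the pair occupies DNA either alone or beside HOX proteins, whose choice of target sites it sharpens. MEIS1 and MEIS2 act in the neural crest, the embryonic tissue from which neuroblastoma arises, and both genes have been studied in this tumour. BAF is a nucleosome remodeller that opens chromatin, mostly at enhancers, and each complex of the canonical kind holds either ARID1A or ARID1B.

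The 7 groups compared held 3 libraries each, all taken 72 h after lentiviral transduction of SK-N-BE(2) cells, in biological triplicates according to the series' design. They were Control (headed NSC in the count tables, and described by the study for its other assays as a non-silencing shRNA), a pair of short hairpin RNAs (shRNAs) against ARID1A (shARID1A.2 and shARID1A.4), a pair against ARID1B (shARID1B.2 and shARID1B.3) and a pair of combinations (shARID1A/B.2.3 and shARID1A/B.4.2, which read as the ARID1A hairpin followed by the ARID1B hairpin). The study used a single cell line, so the values describe this line, and ATAC-Seq gives no check of how far ARID1A or ARID1B fell. Libraries held 16140029 to 44472230 reads in sites, with the deepest in shARID1B.3 and shARID1A/B.2.3. Promoter sites took 19.98% to 20.58% of the reads in Control, 20.92% to 24.14% with the single hairpins and 23.37% to 25.06% in the combinations. Of the adrenergic neuroblastoma markers reported here, PHOX2A, HAND2 and DBH had an open promoter site, at 24.02, 43.9 and 10.3 CPM in Control, while GATA3 and ISL1 had no promoter site under their own name. Of the mesenchymal markers only WWTR1 had one, at 27.3 CPM, and no tested promoter site was named for the blood, vessel or epithelial markers PTPRC, PECAM1 and KRT5.

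The sites on which the results turn are shown as their central 300 bases on the plus strand of GRCh38, in lower case, with any TGACAG (the MEIS core) and TGANTCA (the AP-1 motif, bound by FOS and JUN proteins) in capitals. Among closed sites averaging at least 1 CPM, the MEIS2 sites at 145372 and 297403 bases had the 2 smallest p of those annotated to MEIS2, the PBX3 site the smallest of those annotated to PBX3, and the MEIS1 site the smallest of those lying within MEIS1. The MEIS2 site at 121368 bases had the highest mean CPM over all 21 libraries of those annotated to that gene. In Control alone the main MEIS2 promoter site was more open, with a mean of 32.39 CPM. The windows lie at chr15:37245363-37245662, chr15:37397394-37397693, chr15:37221359-37221658, chr9:125854801-125855100 and chr2:66462652-66462951, the first 3 intergenic and the other 2 intronic.
MEIS2, 145372 bases upstream: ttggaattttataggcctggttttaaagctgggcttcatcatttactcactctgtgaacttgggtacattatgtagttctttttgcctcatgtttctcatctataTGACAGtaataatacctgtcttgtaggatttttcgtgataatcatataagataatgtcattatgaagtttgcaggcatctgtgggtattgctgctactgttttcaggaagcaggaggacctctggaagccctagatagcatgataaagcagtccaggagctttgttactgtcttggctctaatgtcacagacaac
MEIS2, 297403 bases upstream: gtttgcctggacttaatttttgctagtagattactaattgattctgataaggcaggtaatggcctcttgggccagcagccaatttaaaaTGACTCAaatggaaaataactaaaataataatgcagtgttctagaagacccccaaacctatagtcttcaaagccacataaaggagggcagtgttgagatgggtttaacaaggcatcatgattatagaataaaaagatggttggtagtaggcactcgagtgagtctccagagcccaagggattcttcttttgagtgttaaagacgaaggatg
MEIS2, 121368 bases upstream: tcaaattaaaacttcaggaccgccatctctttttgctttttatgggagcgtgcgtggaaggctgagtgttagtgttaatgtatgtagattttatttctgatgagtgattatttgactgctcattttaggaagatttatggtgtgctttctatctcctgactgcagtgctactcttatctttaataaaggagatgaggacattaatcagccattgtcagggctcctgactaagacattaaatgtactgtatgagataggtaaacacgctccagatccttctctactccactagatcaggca
PBX3, 107612 bases downstream: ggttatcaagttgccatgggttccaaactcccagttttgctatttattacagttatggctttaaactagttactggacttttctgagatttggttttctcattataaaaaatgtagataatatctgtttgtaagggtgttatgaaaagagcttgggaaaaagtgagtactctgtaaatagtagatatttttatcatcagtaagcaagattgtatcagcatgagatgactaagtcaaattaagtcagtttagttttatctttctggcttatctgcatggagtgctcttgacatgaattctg
MEIS1, 27676 bases downstream: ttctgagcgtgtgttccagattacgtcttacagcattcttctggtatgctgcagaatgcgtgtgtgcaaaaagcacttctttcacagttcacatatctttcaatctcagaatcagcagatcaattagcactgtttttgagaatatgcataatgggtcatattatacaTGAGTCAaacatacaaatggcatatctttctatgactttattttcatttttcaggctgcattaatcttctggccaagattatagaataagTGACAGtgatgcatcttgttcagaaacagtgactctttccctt

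Matches to these motifs are given as a description of the letters. TGACAG, searched on both strands, was found in 15 of 66 member windows (22.7%) against 21.3% of 357028 windows over all tested sites. TGANTCA was found in 7 of 66 (10.6%) against 10.9%. The 8-base motif TGATTGAT, bound by PBX together with HOX or MEIS, matched no member window and 0.946% of all windows, and its 1 match among the added sites lay in intron 8 of MEIS2, 151451 bases downstream of the start site. Of the 13 member sites that closed after combined silencing 1 held TGACAG and 2 held TGANTCA, which occurred in 23.2% and 14.3% of all closed sites.

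The 6 start-site regions differed in how open they were in Control. Levels are given here as CPM (counts scaled to a common TMM-adjusted library total) per kilobase, since the sites differ in length. The PBX4 promoter had 14.6 CPM per kilobase (12.6 to 15.9 over the 3 Control libraries), the main MEIS2 promoter site 12.7 (11.8 to 13.9), the MEIS1 promoter 11.1 (10.04 to 11.8) and the PBX3 promoter 9.81 (8.74 to 10.9). The ranges of PBX4 and MEIS2 overlapped, as did those of MEIS1 and PBX3, while MEIS2 and MEIS1 came as near as 11.81 and 11.80 without overlap. All 4 lay above the site at the start of PBX2, at 6.09 (5.18 to 7.20), and the MEIS3 promoter, at 1.68 (1.35 to 1.96). The PBX2 site lies 258 bases from its start site and is annotated to a transcription termination site, of another transcript in this gene-dense part of chromosome 6. The MEIS3 promoter site is the longest member, at 4584 bases.

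**Figure D1:**
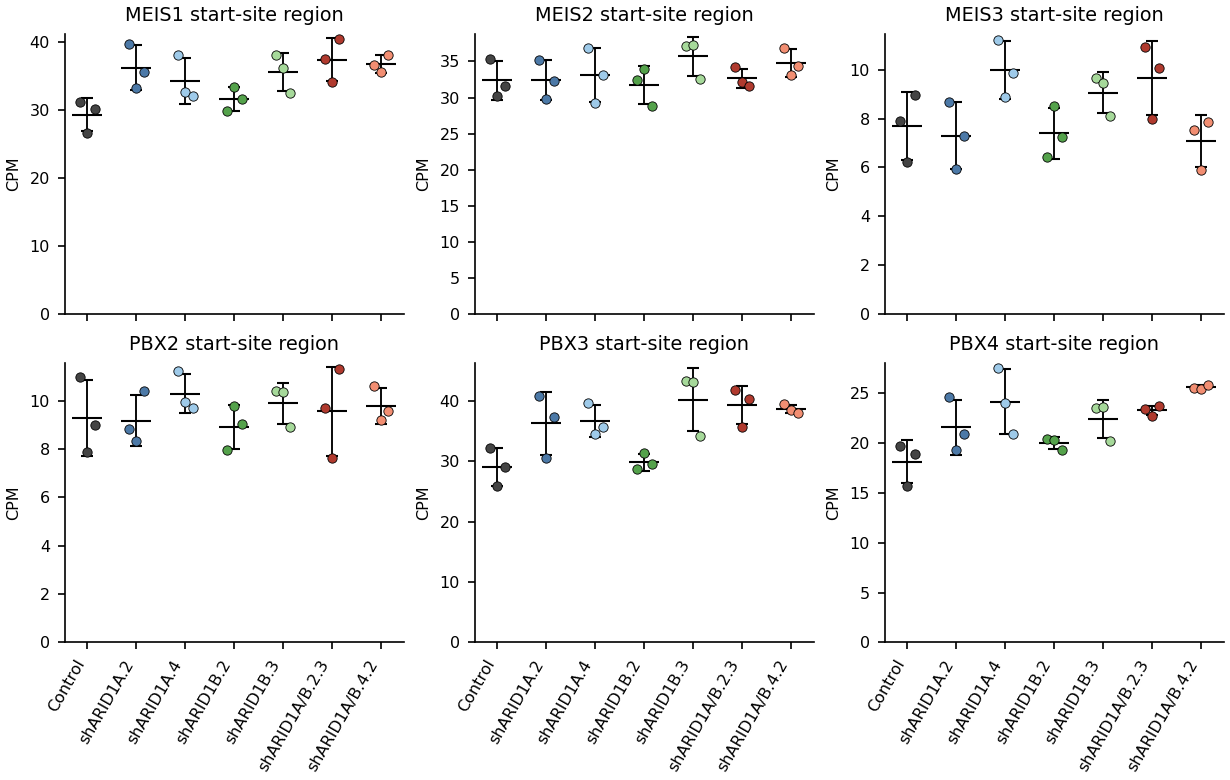
Accessibility of the start-site region of each gene (y axis, CPM from 0) in the 21 libraries (points) of the 7 groups (x axis), with the group mean (horizontal bar) and SD (whiskers), n = 3. The 6 libraries of the combinations sit above the 3 Control libraries at MEIS1, PBX3 and PBX4, whereas the groups overlap at MEIS2, MEIS3 and PBX2.

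After combined silencing, the mean of both combinations against Control, more member sites closed than opened. Accessibility was lower at 13 of the 66 tested member sites (edgeR, false discovery rate, FDR, under 0.01), where 10.3% of all tested sites were called lower, and higher at 8, where 3.43% of all were called higher. MEIS2 had 7 lower and 3 higher of 27 tested, PBX3 6 and 3 of 28, and MEIS3 and PBX4 1 higher site each. The median log2 change was -0.17 over the members and 0.03 over all tested sites. The members also differed from all sites in level and kind. Their median in Control was 1.44 CPM against 1.04 over all tested sites. Promoter sites made up 8.82% of the members against 3.37% of the whole consensus list. The part of these differences in the shares called was not tested. The remaining 2 members, at MEIS2 and PBX3, had too few reads to be tested. When libraries were scaled on promoter sites alone, which moved the median of all sites from 0.03 to -0.20, the split became 22 lower and 1 higher, against 15.9% and 0.729% of all tested sites.

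**Figure D2:**
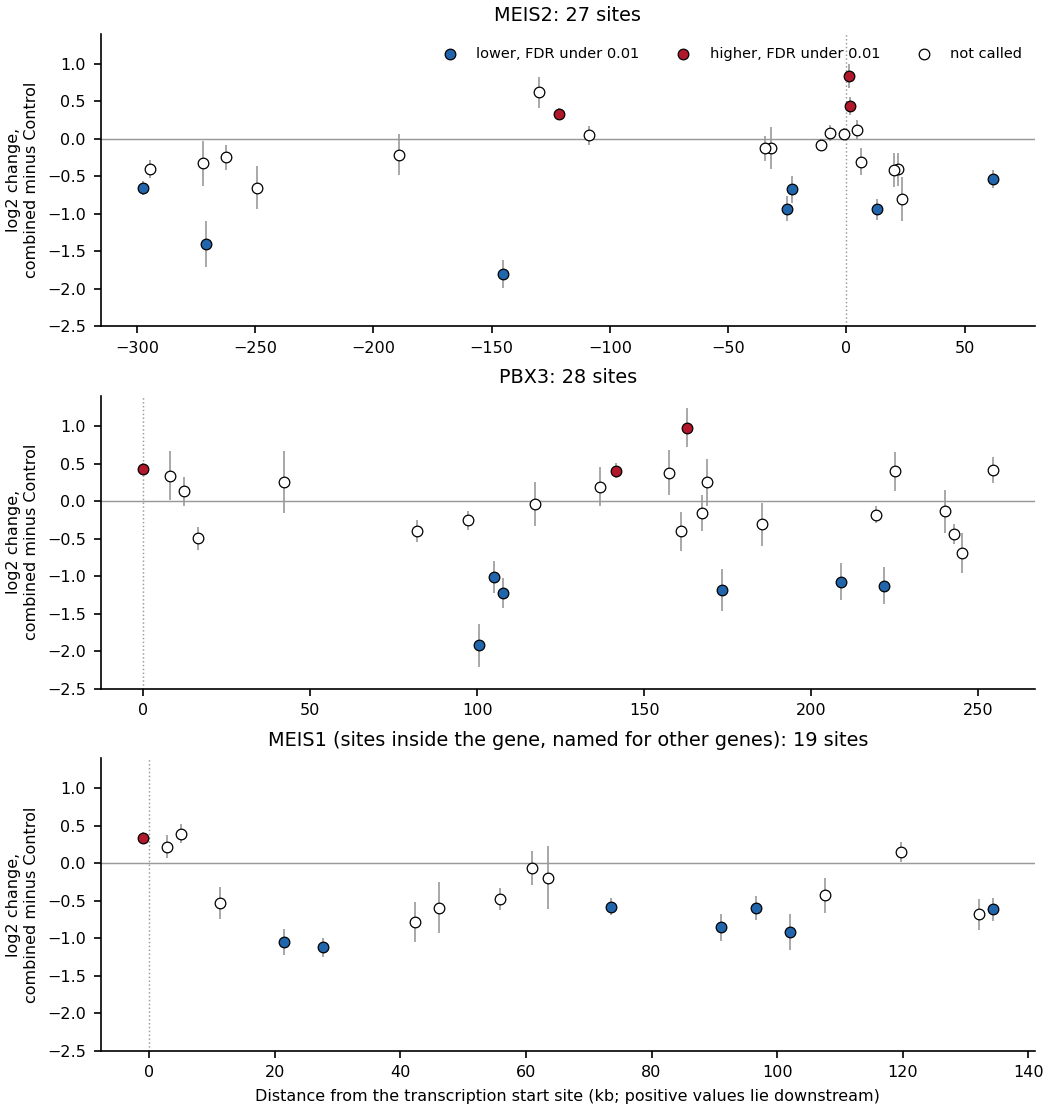
The log2 change after combined silencing (y axis, both combinations minus Control, with its standard error) at each tested site against its distance from the start site in kb (x axis), for MEIS2, PBX3 and the 19 sites inside MEIS1. Blue sites were called lower and red sites higher at an FDR under 0.01, and in each gene the lower sites lie away from the start site.

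The 8 member sites that opened comprised 4 of the 6 promoter sites, a class in which 33.4% of all tested sites were called higher. At the PBX3 promoter the Control libraries had 32.2, 25.9 and 29.0 CPM, those of shARID1A/B.2.3 41.7, 35.7 and 40.4 and those of shARID1A/B.4.2 39.5, 38.5 and 38.0. All 6 libraries of the combinations thus lay above all 3 of Control, and the log2 change was 0.43 ± 0.08 (SE, edgeR FDR 1.92e-05). It was 0.33 ± 0.08 after ARID1A silencing (edgeR FDR 0.00226) and 0.26 ± 0.08 after ARID1B silencing, which missed the threshold (edgeR FDR 0.0301). Scaled on promoter sites the PBX3 promoter was 0.19 higher, with no call (edgeR FDR 0.0118).

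The PBX4 promoter, of a gene best known from the testis, also opened. Its Control libraries had 19.7, 15.7 and 18.9 CPM, against 23.4, 22.7 and 23.7 with shARID1A/B.2.3 and 25.5, 25.4 and 25.8 with shARID1A/B.4.2, again without overlap. The log2 change was 0.43 ± 0.09 (edgeR FDR 3.93e-05). Scaled on promoter sites it was 0.20 (edgeR FDR 0.0206). The share of reads in promoter sites rose from Control to the combinations in the same libraries, as given above, and its part in these gains was not tested.

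The main MEIS2 promoter site showed no such gain. Its Control libraries had 35.4, 30.2 and 31.6 CPM, those of shARID1A/B.2.3 34.2, 32.2 and 31.6 and those of shARID1A/B.4.2 36.8, 33.1 and 34.4. The groups overlapped and the log2 change after combined silencing was 0.06 ± 0.08 (edgeR FDR 0.671). A pair of shorter MEIS2 promoter sites downstream of it did open. The 263-base site 985 bases downstream of the annotated start had 1.97, 1.36 and 1.72 CPM in Control, 2.40, 1.98 and 2.73 with shARID1A/B.2.3 and 3.90, 3.87 and 3.94 with shARID1A/B.4.2. Its log2 change was 1.22 ± 0.18 with the latter (edgeR FDR 3.41e-08) and 0.47 ± 0.18 with the former (edgeR FDR 0.0603), and the combinations differed from each other (shARID1A/B.2.3 minus shARID1A/B.4.2 -0.75 ± 0.16, edgeR FDR 0.000319). The 988-base site at 1663 bases, chosen after its values were seen, had 3.95 to 4.77 CPM in Control. Libraries of shARID1A/B.2.3, at 5.32 to 5.67 CPM, and of shARID1A/B.4.2, at 6.26 to 7.698 CPM, all lay above that range. The log2 change was 0.44 ± 0.12 after combined silencing (edgeR FDR 0.00291), and the combinations were not called different there (-0.30 ± 0.13, edgeR FDR 0.125). The MEIS3 promoter, at 0.10 ± 0.12 (edgeR FDR 0.619), and the site at the start of PBX2, at 0.06 ± 0.11 (edgeR FDR 0.786), were not called.

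MEIS2 sites that closed lay on both sides of the gene's start. The largest fall among those named was at the site 145372 bases upstream, whose sequence is given above. Its Control libraries had 3.66, 2.01 and 2.69 CPM, those of shARID1A/B.2.3 1.22, 0.883 and 0.879 and those of shARID1A/B.4.2 0.672, 0.690 and 0.510. The libraries of both combinations lay below all of Control, and the log2 change was -1.80 ± 0.19 (edgeR FDR 2.44e-13). Silencing of 1 gene also closed it, with log2 changes of -1.44 ± 0.19 for ARID1A (edgeR FDR 2.97e-09) and -0.91 ± 0.17 for ARID1B (edgeR FDR 3.86e-05). Of the ARID1B hairpins shARID1B.3 gave -1.44 ± 0.20 (edgeR FDR 2.68e-08) and shARID1B.2 -0.39 ± 0.20 (edgeR FDR 0.295).

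The farthest MEIS2 site, 297403 bases upstream and the next sequence above, was also among the more open ones. It had 12.8, 12.3 and 12.5 CPM in Control, 7.88, 7.92 and 8.75 with shARID1A/B.2.3 and 7.48, 7.68 and 7.98 with shARID1A/B.4.2. The groups did not overlap, the log2 change was -0.66 ± 0.10 (edgeR FDR 1.93e-08), and it held against the mean of the single hairpins at -0.42 ± 0.07 (edgeR FDR 1.75e-06). The ARID1A hairpins gave unlike values there, and their difference was not tested, since shARID1A.2 gave -0.54 ± 0.11 (edgeR FDR 0.00026) and shARID1A.4 gave 0.13 ± 0.11 (edgeR FDR 0.558).

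The MEIS2 site in intron 6, 12783 bases downstream, closed with both ARID1A hairpins and was called with neither ARID1B hairpin. It had 3.85, 4.23 and 3.97 CPM in Control, 1.49 to 2.11 with shARID1A.2, 1.50 to 3.07 with shARID1A.4, 2.88 to 3.17 with shARID1B.2 and 4.87 to 5.97 with shARID1B.3. Libraries of both ARID1A hairpins and of shARID1B.2 therefore lay below Control, and those of shARID1B.3 above it. The ARID1B hairpins had log2 changes of -0.42 ± 0.16 (shARID1B.2, edgeR FDR 0.123) and 0.48 ± 0.14 (shARID1B.3, edgeR FDR 0.0104). The ARID1A and ARID1B effects differed by -0.98 ± 0.12 (ARID1A minus ARID1B, edgeR FDR 9.64e-10), and after combined silencing the log2 change was -0.94 ± 0.14 (edgeR FDR 6.7e-08). The site 25217 bases upstream, with 2.26 to 3.77 CPM in Control and 1.17 to 2.13 in the combinations, fell by 0.93 on the log2 scale (SE 0.17, edgeR FDR 4.88e-06).

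Other strongly open MEIS2 sites were not among those that closed. The intergenic site 121368 bases upstream, the strongly open one whose sequence is given above, was about as open as the promoter, with 28.7, 30.6 and 29.4 CPM in Control, 36.1, 35.9 and 37.3 with shARID1A/B.2.3 and 39.9, 37.0 and 37.7 with shARID1A/B.4.2. All libraries of the combinations lay above Control, with a log2 change of 0.34 ± 0.07 (edgeR FDR 0.000217). The gain was called after ARID1B silencing (0.32 ± 0.07, edgeR FDR 0.00108) and not after ARID1A silencing (0.12 ± 0.07, edgeR FDR 0.346). Tested against each other, ARID1A and ARID1B silencing were not called different at this site. Scaled on promoter sites the gain after combined silencing was 0.10 with no call (edgeR FDR 0.308). The 2005-base site 10554 bases upstream had 16.6 to 19.5 CPM in Control and 15.1 to 19.0 in the combinations, which overlapped (-0.08 ± 0.08, edgeR FDR 0.573). This last site was chosen after its values were seen.

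**Figure D3:**
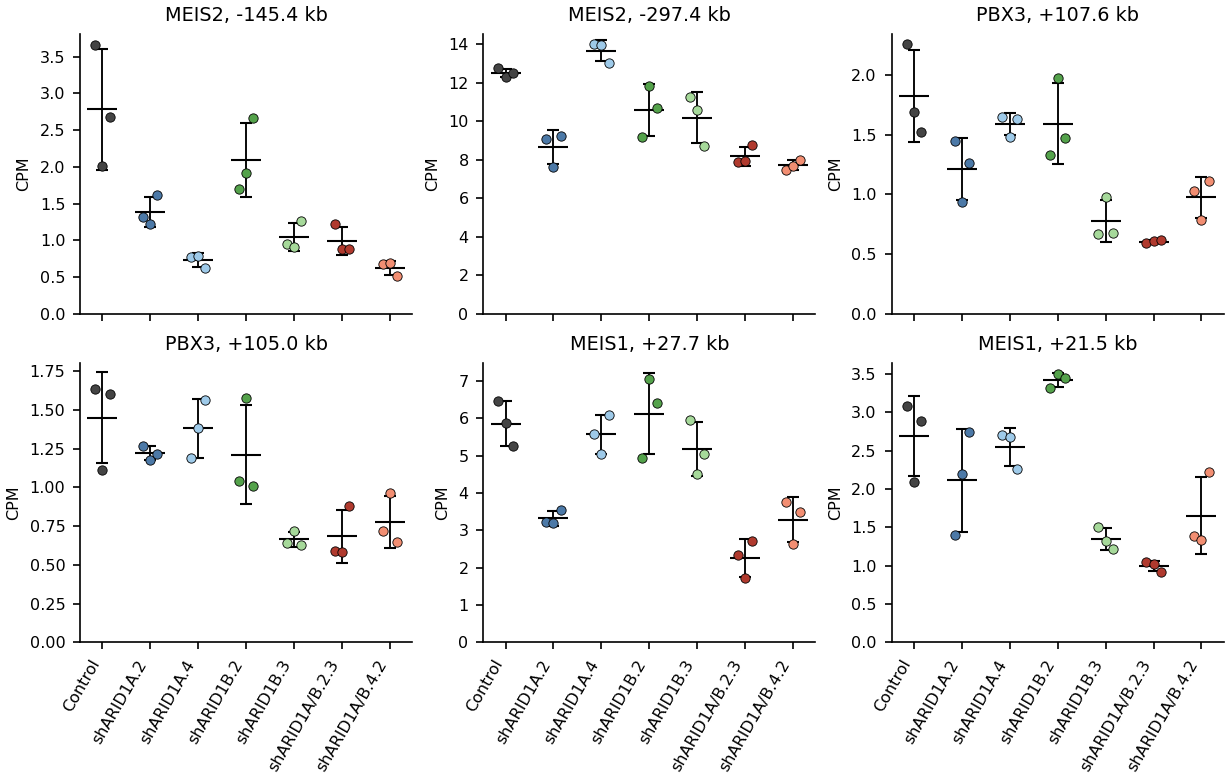
Accessibility (y axis, CPM from 0) in the 21 libraries (points) by group (x axis) at the closed sites with the smallest p among those averaging at least 1 CPM, 2 each annotated to MEIS2 and PBX3 and 2 inside MEIS1, with the group mean and SD, n = 3. The libraries of both combinations lie below Control at 5 of these sites, and at the MEIS1 site at +21.5 kb 1 library of shARID1A/B.4.2 reaches into the Control range.

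PBX3 encodes a PBX protein whose long intron 2 held most of its sites. The sites that closed with a mean of at least 1 CPM were a pair about 100 kb into this intron. At the site 107612 bases downstream, the PBX3 sequence above, Control had 2.26, 1.69 and 1.52 CPM, shARID1A/B.2.3 0.591, 0.604 and 0.616 and shARID1A/B.4.2 1.03, 0.782 and 1.11. The combinations lay below Control, and the log2 change was -1.23 ± 0.20 (edgeR FDR 5.59e-07). The neighbouring site at 105022 bases had 1.11 to 1.64 CPM in Control and 0.581 to 0.966 in the combinations, without overlap (-1.01 ± 0.21, edgeR FDR 0.000118).

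The single hairpins split at both PBX3 sites. At 107612 bases shARID1B.3 had 0.670, 0.979 and 0.672 CPM, a log2 change of -1.18 ± 0.22 (edgeR FDR 3.19e-05), whereas shARID1B.2 gave -0.20 ± 0.22 (edgeR FDR 0.712), shARID1A.2 -0.58 ± 0.22 (edgeR FDR 0.0973) and shARID1A.4 -0.19 ± 0.22 (edgeR FDR 0.697). At 105022 bases the only hairpin with a call was likewise shARID1B.3, at -1.10 ± 0.24 (edgeR FDR 0.000378). A further site of this stretch, 233 bases long at 100626 bases and chosen after its values were seen, had 1.06, 0.863 and 1.20 CPM in Control, 0.230, 0.139 and 0.308 with shARID1A/B.2.3 and 0.403, 0.368 and 0.278 with shARID1A/B.4.2. It had the largest fall of the tested PBX3 sites, -1.92 ± 0.28 (edgeR FDR 3.83e-08), and below 1 CPM its libraries held few reads each. Of the PBX3 sites that opened, the 3006-base site at 141513 bases had 6.40 to 6.82 CPM in Control. The shARID1A/B.2.3 libraries had 6.92 to 9.16 CPM and the shARID1A/B.4.2 libraries 9.34 to 10.5 CPM (0.41 ± 0.10, edgeR FDR 0.00165). It lost its call when replicate 1 of Control was left out (0.38, edgeR FDR 0.017) or with promoter scaling (0.17, edgeR FDR 0.216).

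MEIS3, which shares the MEIS domains but is less studied, had 1 called site. This site, 8860 bases upstream of the start and annotated to a transcription termination site, had 6.21 to 7.94 CPM in Control. The shARID1A/B.2.3 libraries had 7.92 to 10.4 CPM and the shARID1A/B.4.2 libraries 8.42 to 9.55 CPM. The ranges touched, and the log2 change was 0.40 ± 0.11 (edgeR FDR 0.00436). Its call was lost without replicate 2 of Control (0.34, edgeR FDR 0.0372), replicate 3 of Control (0.39, edgeR FDR 0.0264) or replicate 3 of shARID1A/B.4.2 (0.38, edgeR FDR 0.0141), in DESeq2's Wald test (0.41, FDR 0.0115) and with promoter scaling (0.17, edgeR FDR 0.236).

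MEIS1 was reached through the 19 sites inside the gene. Of the 19, 7 were lower and 1, the promoter, was higher after combined silencing, where 10.3% and 3.43% of all tested sites were, with a median log2 change of -0.58. The promoter had 31.2, 26.6 and 30.2 CPM in Control, 37.5, 34.2 and 40.5 with shARID1A/B.2.3 and 36.6, 35.6 and 38.2 with shARID1A/B.4.2. These did not overlap Control, and the log2 change was 0.34 ± 0.08 (edgeR FDR 0.000459), or 0.10 with no call when scaled on promoter sites (edgeR FDR 0.231).

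The closed MEIS1 site with the smallest p lay 27676 bases downstream of the start, the MEIS1 sequence above. Control had 6.45, 5.88 and 5.25 CPM, shARID1A/B.2.3 2.33, 1.72 and 2.73 and shARID1A/B.4.2 3.76, 2.62 and 3.48. The libraries of the combinations all lay below Control (-1.12 ± 0.13, edgeR FDR 9.85e-12). The site was also lower than the mean of the single hairpins (-0.87 ± 0.10 on the log2 scale, edgeR FDR 1.44e-11). Among the single hairpins shARID1A.2 lowered it to 3.21, 3.21 and 3.55 CPM (-0.81 ± 0.15, edgeR FDR 3.26e-05), which overlapped shARID1A/B.4.2. The hairpins shARID1A.4, shARID1B.2 and shARID1B.3 gave -0.08, 0.06 and -0.18 with no call. At the site 21524 bases downstream, by contrast, the hairpin with a call was shARID1B.3 (-0.97 ± 0.19, edgeR FDR 6.27e-05), while shARID1A.2 gave -0.34 ± 0.19 (edgeR FDR 0.33). The 2 further sites named by the same rule, at 73614 and 91032 bases, changed by -0.58 ± 0.12 (edgeR FDR 7.16e-05) and -0.85 ± 0.18 (edgeR FDR 0.000134). The latter lost its call without replicate 3 of Control (-0.67, edgeR FDR 0.0197).

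The 18 sites inside MEIS2 that carry other names lie in introns 7 and 8, and 8 of them closed after combined silencing, where 10.3% of all tested sites did. Their median log2 change was -0.67. The deepest called loss was at the 409-base site 158117 bases downstream of the RefSeq start, at -2.04 ± 0.33 (edgeR FDR 5.88e-07), from 0.674, 0.781 and 0.922 CPM in Control. The 3384-base site at 173176 bases, the most open of the 18, went from 8.47, 7.77 and 9.66 CPM to 3.71, 3.23 and 4.48 with shARID1A/B.2.3 and to 3.90, 4.23 and 4.13 with shARID1A/B.4.2 (-1.15 ± 0.11, edgeR FDR 4.25e-15). Both were chosen after their values were seen. With the 42 added sites, 29 of 108 sites were lower (26.9%, against 10.3% of all tested sites) and 9 higher (8.33%, against 3.43%) after combined silencing.

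Each combination on its own also had more lower than higher member sites, though for shARID1A/B.4.2 this turned on single libraries. With shARID1A/B.2.3, 14 member sites were lower and 5 higher, against 10.4% and 2.85% of all tested sites. With shARID1A/B.4.2, 12 were lower and 8 higher, against 7.37% and 3.97%. Scaled on promoter sites these splits became 20 lower and 1 higher with each, against 12.8% and 1.10% of all sites with shARID1A/B.2.3 and 15.1% and 0.810% with shARID1A/B.4.2. The 5 higher sites of shARID1A/B.2.3 became 2 without replicate 2 of Control, 3 without replicate 3 of Control and 2 without its own replicate 3. The 12 lower sites of shARID1A/B.4.2 became 5 without replicate 1 of Control, 7 without replicate 3 of Control, and 5 and 7 without its own replicates 1 and 2. Its higher sites numbered 6 to 8 with 1 library left out, so they outnumbered the lower ones in the fits with 5 lower. Both comparisons use the same Control libraries. Tested against each other, 5 member sites were lower with shARID1A/B.2.3 than with shARID1A/B.4.2 where 3.79% of all sites were called lower (edgeR). The count became 2 when replicate 2 of shARID1A/B.2.3, replicate 2 of shARID1A/B.4.2 or replicate 3 of shARID1A/B.4.2 was left out. They were 4 MEIS2 sites, at 61892, 4356, 985 and -129915 bases, and the PBX4 site at 27551 bases. At 61892 bases, in intron 7 of MEIS2, Control had 4.40 to 5.33 CPM, shARID1A/B.2.3 2.37 to 3.05 and shARID1A/B.4.2 4.05 to 4.73, so that the combinations did not overlap.

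**Figure D4:**
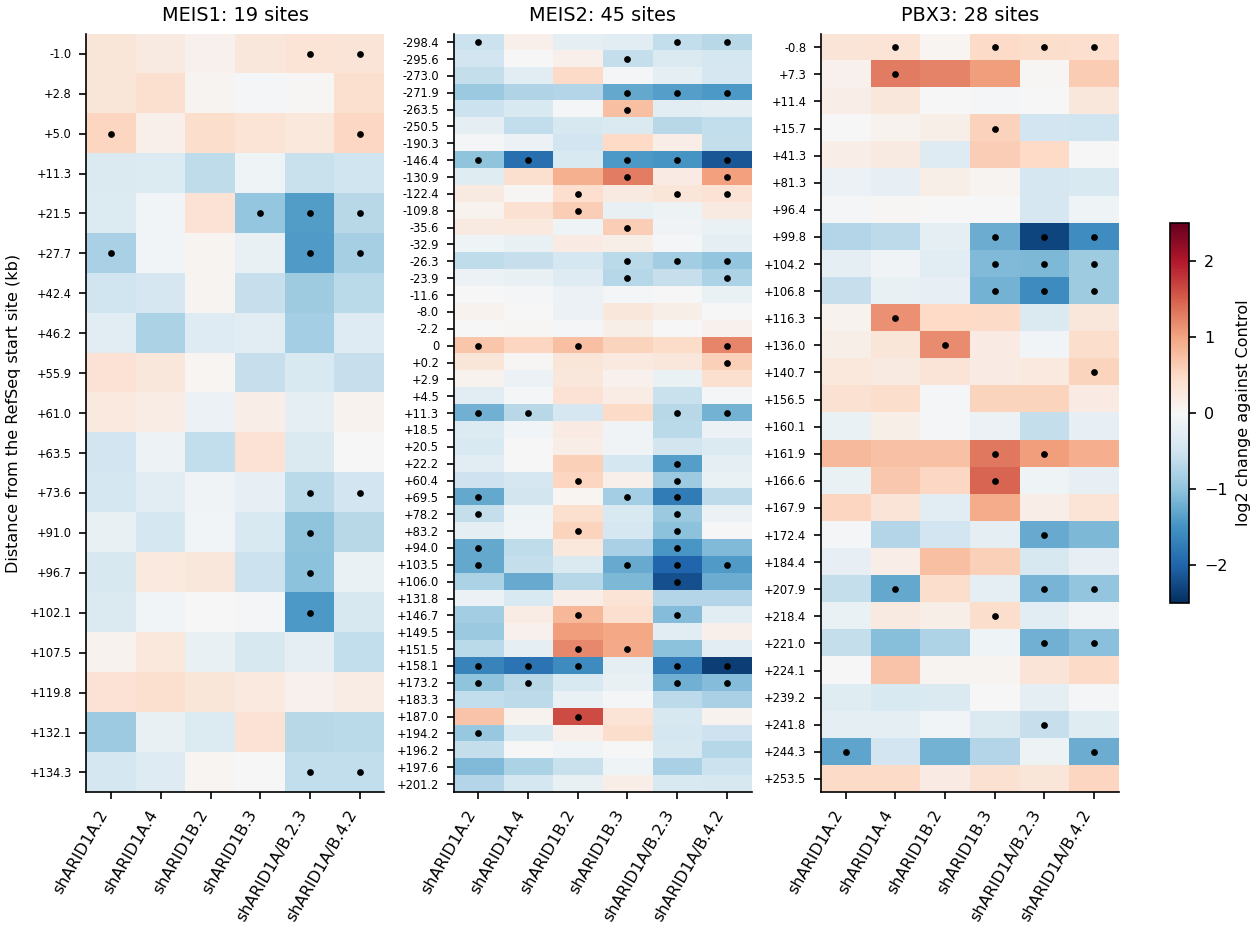
The log2 change against Control (colour, blue lower and red higher) of every tested site of MEIS1, MEIS2 and PBX3 (rows, ordered by distance from the RefSeq start site in kb, sites inside the gene with another name included) for the 6 silenced groups (columns). Dots mark calls at an FDR under 0.01. At MEIS1 most dots stand in the columns of the combinations.

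The single-gene comparisons had lower counts of closed sites among the members. After ARID1A silencing 5 were lower and 4 higher, against 5.37% and 1.67% of all tested sites, and after ARID1B silencing 2 were lower and 7 higher, against 3.53% and 1.39%. Scaled on promoter sites the splits became 12 lower and 0 higher for ARID1A, against 9.55% and 0.336% of all sites, and 7 lower and 3 higher for ARID1B, against 5.77% and 0.588%. These small counts turned on single libraries. The 5 lower sites of ARID1A silencing became 2 without replicate 1 or 3 of Control, replicate 2 of shARID1A.2 or replicate 1 of shARID1A.4, and 3 without replicate 3 of shARID1A.2 or replicate 2 of shARID1A.4. Its 4 higher sites became 0 without replicate 2 of Control, and 1 without replicate 3 of Control, replicate 1 of shARID1A.2 or replicate 1 of shARID1A.4. The 2 lower sites of ARID1B silencing became 0 without replicate 1 of Control and 1 without replicate 1 of shARID1B.2 or of shARID1B.3, and its 7 higher sites became 4 and 3 without replicates 2 and 3 of Control. The single hairpins called 5 (shARID1A.2), 8 (shARID1A.4), 6 (shARID1B.2) and 17 member sites (shARID1B.3) in either direction, where 5.38%, 6.45%, 3.18% and 8.00% of all tested sites were called. The 3 libraries of shARID1B.3 held 36799314, 44472230 and 23104850 reads in sites, the first pair among the deepest of the series. The count of shARID1B.3 became 11 and 10 without its replicates 1 and 2, and that of shARID1A.2 became 3 without replicate 3 of Control. The count of shARID1A.4 became 4 without replicate 2 or 3 of Control, 2 without its own replicate 1 and 5 without its replicate 2 or 3. That of shARID1B.2 became 3 without replicate 2 of Control or its own replicate 2 and 2 without its replicate 3.

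Some member sites were lower after combined silencing than in the mean of the single hairpins, which does not place them below each hairpin. Against the mean of the 4 single-hairpin groups 15 member sites were lower, where 6.85% of all were called lower, and none was higher, where 0.969% were (edgeR; 7 were higher at an unadjusted p under 0.05, and DESeq2 called none). PBX3 had 9 of the 15, MEIS2 5 and PBX4 1. No PBX4 site was lower than Control after combined silencing, so a call in this comparison need not be a loss against Control. ARID1A and ARID1B silencing differed at 7 member sites, all lower with ARID1A, where 3.69% of all sites were called lower. Of these 7, 4 belonged to MEIS2, 2 to PBX3 and 1 to PBX4.

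At 3 member sites the log2 change after combined silencing was lower than the single-gene changes add up to, where 0.376% of all sites were called so (edgeR). Without replicate 3 of Control none of the 66 was called. The PBX4 site at 27551 bases, in intron 1, had 1.68, 1.93 and 1.48 CPM in Control and 4.26, 4.23 and 4.69 with shARID1B.2. With shARID1A/B.2.3 it had 1.31, 0.790 and 1.27 and with shARID1A/B.4.2 1.52, 2.30 and 1.76. The log2 change was 1.37 ± 0.18 with shARID1B.2 (edgeR FDR 1.1e-08) and 0.13 ± 0.20 with shARID1A/B.4.2 (edgeR FDR 0.765), and the departure from the sum was -1.12 ± 0.22 (edgeR FDR 0.00132).

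Likewise the PBX3 site at 167399 bases had 0.802 to 1.16 CPM in Control, 2.10 to 2.85 with shARID1B.3 and 0.755 to 0.923 with shARID1A/B.2.3. The shARID1B.3 libraries lay above Control and those of the combination overlapped it, with a departure of -1.39 ± 0.29 (edgeR FDR 0.00225). The PBX3 site at 16501 bases had 2.38 to 3.56 CPM in Control, 3.28 to 4.66 with shARID1B.3 and 1.89 to 2.13 in the libraries of both combinations, a departure of -0.91 ± 0.19 (edgeR FDR 0.00241). The combinations there lay below Control, with a log2 change of -0.50 ± 0.15 that missed the threshold (edgeR FDR 0.0115).

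**Figure D5:**
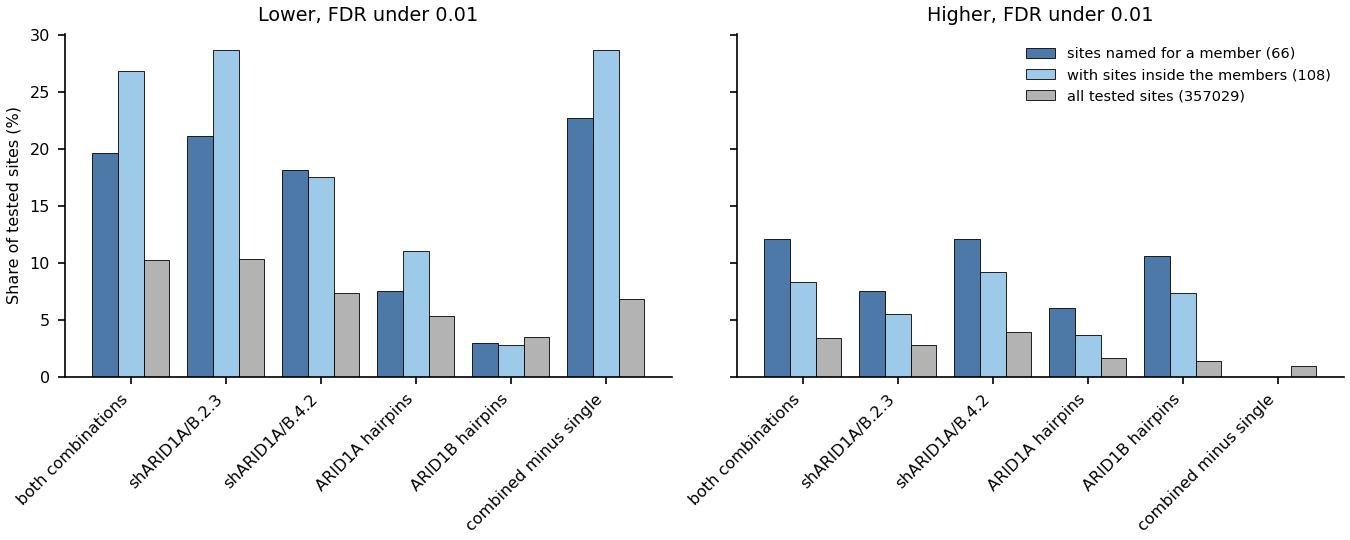
Share of tested sites called lower (left) or higher (right) at an FDR under 0.01 (y axis, %, from 0) in 6 comparisons (x axis), for the 66 sites named for a member, for the 108 sites with those inside the members added, and for all 357029 tested sites. Member shares lie above those of all sites for the combinations in both directions, and no member site is higher with combined than with single silencing.

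Sites of other TALE genes and of PBXIP1, a protein that binds PBX, were counted the same way. Of 268 tested sites of PKNOX1, PKNOX2, TGIF1, IRX1 to IRX6, MKX and PBXIP1, 24 were lower (8.96%) and 12 higher (4.48%) after combined silencing, near the 10.3% and 3.43% of all tested sites, with a median log2 change of 0.23. PKNOX2, a MEIS-related gene, had 11 lower of 50 (22.0%) and IRX6 7 of 22 (31.8%), whereas IRX1, with the most sites, had 2 lower and 4 higher of 109.

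Summed over its tested sites, the accessibility of MEIS2 in Control was 149.8 ± 6.48 CPM (SD, n = 3). It was 142.7 ± 5.98 CPM under shARID1A/B.2.3 and 150.8 ± 5.27 CPM under shARID1A/B.4.2, and the PBX3 sums in the same order were 76.2 ± 7.60, 78.6 ± 7.38 and 83.6 ± 1.52 CPM. The libraries of these groups overlapped for both genes. For PBX3, Control had 82.09, 67.6 and 78.85 CPM and shARID1A/B.4.2 had 84.95, 81.96 and 83.94. The overlap of that pair thus rested on the Control library at 82.09 CPM. Among 9090 genes with at least 10 tested sites, the summed log2 CPM across the 21 libraries was closest to that of MEIS2 for LOC102723775 (Pearson's r 0.904), KDM4B (0.89) and TIAF1 (0.89), and to that of PBX3 for ZCCHC14 (0.936), LRPPRC (0.936) and NTNG2 (0.927). These values share libraries, scaling and the promoter share of each library and are a description only.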

How the data were processed

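ATAC-Seq libraries of 21 SK-N-BE(2) cultures were grouped by their labels. The authors deposited raw counts of reads per consensus site, which are the count unit used here, with a HOMER annotation of each site on GRCh38; the aligner, peak caller and their versions were not given in the sources used here, apart from DESeq2, which the submitters' processing notes name. The Control counts repeated across the tables were identical. The normalised columns of single libraries, 36 in all, were not used. The deposited fold changes and p-values of the authors' own DESeq2 comparisons were not used either. Sites were filtered with filterByExpr (minimum count 10), which kept 357029 of 367900, scaled by TMM and tested with edgeR 4.0.16 (R 4.3.3) by the quasi-likelihood test over all 21 libraries, with Benjamini-Hochberg adjustment over all tested sites and an FDR threshold of 0.01. CPM values use TMM-scaled totals. The common biological coefficient of variation was 0.0817. The code was tested on simulated data.

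The gene list, the motifs and the related genes were chosen with earlier results of these data known. Named sites were, for each gene, the site nearest the start (within 1000 bases) and the site with the highest mean CPM over all 21 libraries. Among called sites with a mean of at least 1 CPM, those with the smallest p were also named (4 closed and 2 opened for genes with at least 20 tested sites, otherwise 1 each). Distances are those of the deposited annotation, and for sites added by position those to the RefSeq start site. Intron numbers are those of the annotated transcript. Motifs were searched on both strands of the central 300 bases in the GRCh38 reference. Alternatives were other scalings, DESeq2 1.42.0, no low-count filter, a replicate block, other thresholds and each library left out, with the dispersion trend then taken from every 16th site. Whether replicate numbers pair the samples was checked from the correlation of same-numbered libraries' deviations from their group means (r from -0.395 to 0.590 over 63 pairs), since the labels do not tie the numbers to a batch or day.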

Additional observations from a re-analysis of the deposited data

Results flagged for a closer look

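Member sites were flagged where the tested difference between hairpin groups passed an FDR of 0.01 in edgeR. Between the combinations (shARID1A/B.2.3 minus shARID1A/B.4.2) the log2 difference was -0.75 ± 0.15 at the MEIS2 site 61892 bases downstream (FDR 0.000154), -0.57 ± 0.15 at 4356 bases (FDR 0.00546), -0.75 ± 0.16 at 985 bases (FDR 0.000319) and -0.82 ± 0.21 at 129915 bases upstream (FDR 0.00451), and -0.78 ± 0.21 at the PBX4 site at 27551 bases (FDR 0.00818).

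Between ARID1A and ARID1B silencing (ARID1A minus ARID1B) it was -0.81 ± 0.10 at the MEIS2 site at 61892 bases (FDR 6.8e-10), -0.98 ± 0.12 at 12783 bases (FDR 9.64e-10), -1.03 ± 0.16 at 129915 bases upstream (FDR 7.62e-07) and -0.82 ± 0.14 at 262434 bases upstream (FDR 2.64e-06). It was -0.98 ± 0.13 at the PBX4 site at 27551 bases (FDR 1.09e-08), and -0.73 ± 0.17 and -1.04 ± 0.20 at the PBX3 sites at 167399 and 208786 bases (FDR 0.00132 and 7.86e-05). The departure from the sum was flagged at the PBX4 site at 27551 bases (-1.12) and at the PBX3 sites at 16501 (-0.91) and 167399 bases (-1.39).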

How the results depend on the processing

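Of the 19 named sites 12 kept their call, or their lack of one, under every alternative, and no called site changed direction. The MEIS3 promoter and the site at the start of PBX2, neither called, did not keep their direction. With 1 library left out their log2 changes ranged from -0.009 to 0.231 and from -0.022 to 0.186. The counts moved more. Scaled on promoter sites, closed and opened members numbered 22 and 1 after combined silencing, opened ones 1 with shARID1A/B.2.3, closed and opened ones 20 and 1 with shARID1A/B.4.2, 12 and 0 after ARID1A and 7 and 3 after ARID1B silencing. Closed after ARID1B silencing numbered 1 with DESeq2 size factors and 1 without the low-count filter. With total counts only, 3 sites differed between the combinations.

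DESeq2's Wald test gave 3 opened with shARID1A/B.2.3, 5 closed with shARID1A/B.4.2, 2 closed after ARID1A silencing, 1 closed and 4 opened after ARID1B silencing, 9 lower than with single hairpins, 3, 5, 3 and 10 called for shARID1A.2, shARID1A.4, shARID1B.2 and shARID1B.3, and 2 between the combinations. At an FDR of 0.05 closed sites numbered 8 after ARID1A and 8 after ARID1B silencing, and 1 was higher with combined than with single silencing.

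When calls also needed a size of 1 on the log2 scale, closed and opened sites numbered 8 and 0 after combined silencing, 9 and 1 with shARID1A/B.2.3, 6 and 2 with shARID1A/B.4.2, 1 and 0 after ARID1A, 0 and 3 after ARID1B silencing, and 1 was lower than with single hairpins. Within 100000 bases of the start site they numbered 4 and 5, 4 and 3, 3 and 5, 3 closed for ARID1A, 0 and 3 for ARID1B, and 6 lower than with single hairpins, from fewer sites. With the sites inside the members added, an alternative chosen after seeing the data, closed sites numbered 29, 31 and 19 for both combinations and each, 12 after ARID1A silencing, and 31 were lower than with single hairpins.

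With 1 library left out, counts ranged from 2 to 6 (opened, shARID1A/B.2.3), 5 to 10 (closed, shARID1A/B.4.2), 2 to 5 and 0 to 4 (closed and opened, ARID1A), 0 to 3 and 3 to 9 (closed and opened, ARID1B), 3 to 5, 2 to 6, 2 to 5 and 10 to 16 (shARID1A.2, shARID1A.4, shARID1B.2, shARID1B.3), 2 to 6 (between the combinations) and 0 to 4 (departure from the sum). The causes were not tested.

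Over 21 pairs of groups, every same-numbered correlation exceeded 0.1 in 3 (Control with shARID1A.2, Control with shARID1A/B.2.3, and shARID1A.2 with shARID1A/B.2.3). Different-numbered libraries of these groups could correlate as much. Replicate 3 of Control had an r of 0.313 with replicate 1 of shARID1A/B.2.3 and 0.283 with replicate 3 of that group. Replicates 1 and 2 of Control had their highest r in that group with their own number, at 0.252 and 0.590. Pairing by number was therefore not shown, and the main tests used no block. Under the replicate block 15 member sites closed and 8 opened after combined silencing, shARID1A/B.2.3 had 14 closed and 5 opened, shARID1A.2 went from 5 calls to 7, and no count moved by over 1.5 times; 13 of 21 libraries correlated best with their own number. Sites under 1 CPM rest on few reads, so small changes there were not detectable.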
